A study of Mus musculus with 461 samples.

Results

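The genes described here are the 44 collagen chain genes among the 31673 genes of the deposited tables. They were chosen by symbol alone: Col, a type number, the letter a and a chain number. Of the 44, 43 passed the filter on low counts and were tested, and Col6a4, with counts in the day 4 set only, was not. The cells came from a mouse reprogramming course named 7F in the titles, in which 461 single cells were captured on the Fluidigm C1 system on days 0, 1, 3, 4, 5 and 7. Day 0 cells were OG2 transgenic mouse embryonic fibroblasts of a mixed strain (1/2 129SVJ with 3/8 C57B6 and 1/8 CBA), grown in DMEM with 10% fetal bovine serum. Cells of the later days carried the same transgene and strain mix and grew in iCD1 medium. OG2 is a reporter transgene in which Oct4 (Pou5f1) regulatory sequence drives green fluorescent protein. The sources used here do not give the 7 factors, the age of the embryos or how many were pooled. Day, factors and medium changed together between day 0 and every later day and cannot be told apart.

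Sample titles begin with b1, b2 or b3, a prefix the labels do not explain, and all cells of 1 day with 1 prefix were treated as a set, the unit of comparison: 20 cells of b1 and 54 of b2 at day 0, 58 of b2 at day 1, 61 of b1 and 58 of b2 at day 3, 59 of b3 at day 4, 79 of b2 at day 5 and 65 of b2 at day 7. As b3 occurs at day 4 alone, the effects of its prefix and of its day cannot be told apart. These 8 sets held 58.394 to 208.883 M counts each (M, mega), and single cells held 0.319 to 6.999 M. Day 4 cells were the shallowest, with a median of 0.983 M counts against 1.963 to 3.306 M in the other 7 sets. A further 5 cells of b1 at day 5 and 2 of b1 at day 7 were too few for a set and are described on their own. Summed TPM of 10 fibroblast markers was 1890 and 1278 in the day 0 sets and 339 at day 7. Most of this sum was Vim in all 8 sets (1467 and 895.1 TPM at day 0 and 322.1 at day 7). Of the 10 markers, 7 were called lower at day 7 and none higher. The sum of 10 markers of pluripotent cells went from 0.234 and 0.0437 to 10600 TPM, of which Dppa5a was 8606 at day 7. Of 8 macrophage markers, Adgre1 was at 0 in every set, and the sum ran from 1.43 to 22.7 TPM, highest at days 5 and 7, where it was mostly Cd68. Of 8 epithelial markers 4 rose at day 7 (summed TPM 231.5 and 137 at day 0, 574.2 at day 7, at 90.1 to 182.9 in between), and at day 0 Esrp1 was at 0 in both sets. At each of days 1, 3, 4 and 5, 1 epithelial marker was called lower. On days 3, 4 and 5, 2 were called higher, and none was at day 1. Krt18 had 169.7 and 107.3 CPM (counts per mega-count) at day 0, 13.97 at day 4, 18.57 at day 5 and 168.1 at day 7. Of 8 endothelial markers 2 were called higher on every later day (sum 11.43 and 0.793 at day 0, 10.26 to 47.64 later), and Cdh5, Cldn5, Emcn and Tek were at 0 at day 0. Of 6 Schwann or neural crest markers 1 or 2 rose on each later day (sum 1.0 and 1.283 at day 0, 0.722 to 21.64 later). Of 7 osteoblast markers 1 or 2 rose (43.59 and 219.4, then 330.4 to 1236, mostly Spp1). Of 8 primitive or parietal endoderm markers, 1 was called higher at each of days 3, 4, 5 and 7. On those days 1, 1, 2 and 2 of them were called lower. Their sum was 1582 and 2013 TPM at day 0 and 272.4 to 788.3 later, mostly Sparc, with 5140 in the highest day 7 cell. Of the chondrocyte markers Sox9 fell and Hapln1 rose at days 4, 5 and 7, with Comp and Matn1 at 0 at day 0. Of the skeletal muscle markers Tnnt3 fell at days 5 and 7, with Myod1 at 0 in every set. The part of these marker changes in the collagen results was not tested.

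Collagens are extracellular proteins built as triple helices of chains in which glycine recurs at a fixed spacing. Fibrillar collagens form the fibers of connective tissue, and fibroblasts are their main makers. Fibril-associated collagens sit on those fibers, type VI collagen forms beaded filaments, type VII anchors epithelium, type IV forms the sheet of basement membranes, and multiplexins and membrane-spanning collagens lie at the cell border.

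Promoter sequence is shown for 4 chains whose levels took different courses: Col1a2, called lower from day 1; Col3a1 and Col6a1, called lower at days 5 and 7; and Col23a1, higher than at day 0 on several days. Each is the 250 bases before the RefSeq start of the gene in GRCm38.p6, at chr6:4505368-4505617 (plus strand), chr1:45311288-45311537 (plus), chr10:76726045-76726294 (minus) and chr11:51289670-51289919 (plus). Capitals mark the CCAAT box, the TATA box (TATAAA) or the motif of the AP-1 factors (TGANTCA), each on either strand.
Col1a2: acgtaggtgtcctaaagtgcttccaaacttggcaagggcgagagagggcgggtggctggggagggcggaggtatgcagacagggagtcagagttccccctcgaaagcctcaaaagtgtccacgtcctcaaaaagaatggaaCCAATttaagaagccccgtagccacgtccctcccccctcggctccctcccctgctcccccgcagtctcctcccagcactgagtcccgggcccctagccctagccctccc
Col3a1: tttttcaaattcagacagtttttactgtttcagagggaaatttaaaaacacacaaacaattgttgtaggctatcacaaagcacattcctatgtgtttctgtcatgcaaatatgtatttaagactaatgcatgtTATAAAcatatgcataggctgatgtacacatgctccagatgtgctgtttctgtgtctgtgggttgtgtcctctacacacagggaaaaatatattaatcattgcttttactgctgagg
Col6a1: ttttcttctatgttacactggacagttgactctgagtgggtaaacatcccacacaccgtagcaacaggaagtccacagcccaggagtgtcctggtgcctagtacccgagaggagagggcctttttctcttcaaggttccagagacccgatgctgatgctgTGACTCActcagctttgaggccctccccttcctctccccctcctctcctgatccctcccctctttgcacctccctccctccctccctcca
Col23a1: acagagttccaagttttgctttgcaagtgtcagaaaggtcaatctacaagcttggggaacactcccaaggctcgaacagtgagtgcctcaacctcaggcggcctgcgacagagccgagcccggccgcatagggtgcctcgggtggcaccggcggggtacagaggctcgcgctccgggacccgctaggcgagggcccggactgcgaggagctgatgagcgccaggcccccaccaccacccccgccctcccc
The motif of Col1a2 began at -109, that of Col3a1 at -117 and that of Col6a1 at -90, counted from the start with -1 as the base before it. The 250 bases of Col23a1 held none of the 3. RefSeq windows of 300 bases (250 before to 50 after the start) were found for 35 of the 44 chains. Col1a1, Col2a1, Col5a2 and Col12a1 were among those without a window. A chain with more than 1 window counted as holding a motif if any of its windows did. CCAAT on either strand was in 13 of these 35 (37.1%) and in 37.4% of 32851 windows of all genes, and TATAAA was in 5 (14.3%) against 13.6%. TGANTCA was in 1 of the 35 (2.86%), the Col6a1 window above, against 7.81%. GGGCGG, the GC box, was in 22 of the 35 (62.9%) against 35.7%, and 6 of the 8 fibrillar chains with a window held it. Counted by window, as for all genes, CCAAT was in 13 of 38 collagen windows, TATAAA in 5, TGANTCA in 1 and GGGCGG in 23. A match is a stretch of letters and not a measured binding site.

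Collagen chains took a smaller share of a cell's transcripts, on average, at days 5 and 7 than at day 0, and the median cell held fewer chains. TPM is a relative level scaled for transcript length, so it can be added over chains. The mean summed TPM of the 44 chains was 1074 in b1 and 940.2 in b2 at day 0, 453.5 at day 1, 441.4 and 436.8 in b1 and b2 at day 3, 355.3 at day 4, 115.9 at day 5 and 116.5 at day 7. The median cell was lower than the mean in all 8 sets, at 963.0 and 727.4 at day 0, 327.8 at day 1, 250.7 and 239.6 at day 3, 146.4 at day 4, 43.78 at day 5 and 54.29 at day 7. Both measures put the day 0 sets highest and the day 5 and day 7 sets lowest, and single cells of all days overlapped: day 0 b2 cells ran from 157.5 to 3854 and day 7 cells from 1.13 to 1082. None of the 74 day 0 cells was under 100 TPM, against 54 of 79 cells at day 5 and 45 of 65 at day 7. The median cell held 12 and 13 chains at a TPM of 1 or more at day 0, 14 at day 1, 11 and 8 at day 3, 10 at day 4, 3 at day 5 and 2 at day 7. At day 5, 2 cells held no chain at that level, and at day 7, 3 cells did. Across the cells of a set, the collagen sum went with the summed fibroblast markers (Spearman rho 0.32 to 0.55 in the 8 sets of 20 to 79 cells) and, after day 0, went against the summed pluripotent markers (rho -0.29 to -0.56). At day 0 the rho with the pluripotent markers was 0.14 in b1 and -0.30 in b2. Those markers were then near 0 (0.234 and 0.0437 TPM), so a value like those of days 1 and 3 arose with almost no such transcripts. Collagen and marker sums come from the same library and the same per-cell scaling, and the fibroblast sum was mostly Vim, so these values are descriptions only.

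**Figure D1:**
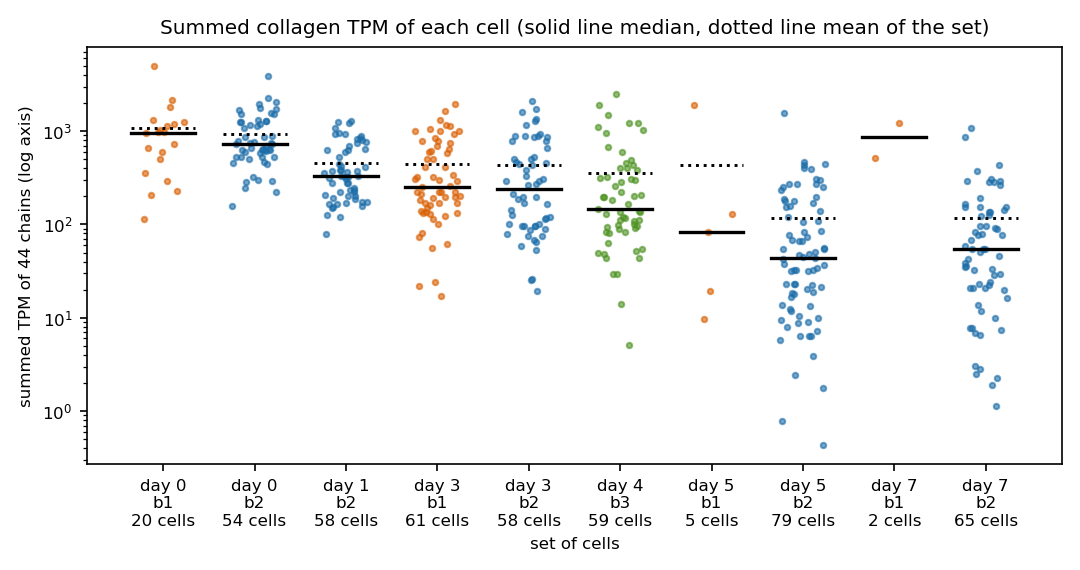
Summed TPM of the 44 collagen chains in each cell (log axis) for the 8 sets and the 2 small b1 sets, with 1 point per cell, a solid line at the median and a dotted line at the mean. None of the 74 day 0 cells lies under 100 TPM, while 54 of 79 day 5 and 45 of 65 day 7 cells of b2 lie under 100 TPM, and 1 cell of the small day 5 set stands at 1919 TPM.

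Each later day was compared with day 0, and day 5 with day 3, by edgeR's quasi-likelihood test on counts summed over the cells of a set, and a chain was called when its Benjamini-Hochberg adjusted p over 22378 genes was under 0.05. The comparisons share the day 0 sets, or the day 3 and day 5 sets, and are not independent. At day 1, 2 chains fell and 1 rose, while 1.18% of all genes were called, 0.25% lower and 0.934% higher. At day 3, 5 fell and 2 rose (all genes 3.14% called, 1.04% lower and 2.1% higher), and at day 4, 6 fell and 2 rose (3.03%, 0.965% and 2.07%). At day 5, 14 of 43 fell and none rose (4.73%, 2.18% and 2.56%), with 2 chains higher at an unadjusted p under 0.05 and none by DESeq2 at that level. At day 7, 15 fell and 1 rose (6.6%, 3.05% and 3.55%). From day 3 to day 5, 8 fell and none rose (1.71%, 1.07% and 0.643%), also none at an unadjusted p under 0.05. The median log2 fold change of the chains was -0.26, -0.33, -0.99, -2.70 and -2.72 at days 1, 3, 4, 5 and 7 against day 0 and -2.25 from day 3 to day 5. That of all genes tested was 0, 0.11, 0, 0, 0 and -0.14. Over the 6 comparisons 19 chains were called, 17 of them lower and 3 higher at least once, with Col6a3 called in both directions.

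Days 0 and 3 alone had more than 1 set, so the p-values rest on a spread between sets that edgeR shared over all genes, and nothing says that sets came from separate cultures. Leaving out 1 of these 4 sets moved the number of chains called at day 1 from 3 to 8 without day 0 b2, 0 without day 3 b1 (6 lower and 3 higher at an unadjusted p under 0.05) and 1 without day 3 b2. Without day 3 b1 it was 2 in place of 7 at day 3, 5 in place of 8 at day 4 and 10 in place of 16 at day 7. From day 3 to day 5 it was 5 in place of 8 without day 3 b2. It stood at 10 to 15 at both day 5 and day 7. Within prefix b2, the 1 prefix seen on 5 of the 6 days, log2 CPM ratios to day 0 at days 5 and 7 were -4.90 and -7.63 for Col1a2, -2.46 and -2.13 for Col3a1, -6.35 and -3.30 for Col5a1, and -2.70 and -3.47 for Col5a2. They were -10.50 and -12.67 for Col12a1, -8.84 and -7.77 for Col6a1, -6.17 and -12.24 for Col6a2, and -5.36 and -8.75 for Col6a3. They were -2.60 and -2.37 for Col4a1, -2.16 and -2.23 for Col4a2, and -0.96 and -0.24 for Col18a1. All were of the direction of the pooled changes but for Col18a1 at day 7. The pooled changes used the same day 5 and day 7 sets and also day 0 b2, so the shared direction is no separate check. The 5 small-set cells of day 5 stand apart: 4 of them had collagen sums of 9.6 to 129.0 TPM, and 1 had 1919 TPM with 17 chains, 3359 TPM of fibroblast markers and 7.57 TPM of pluripotent markers. When the cells of the small sets were added to the b2 sum of their day, an alternative chosen after seeing the data, 10 chains were called at day 5, 14 at day 7 and 4 from day 3 to day 5. With the small sets entered as sets of their own, edgeR called 1 chain at day 5 and 2 at day 7.

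**Figure D2:**
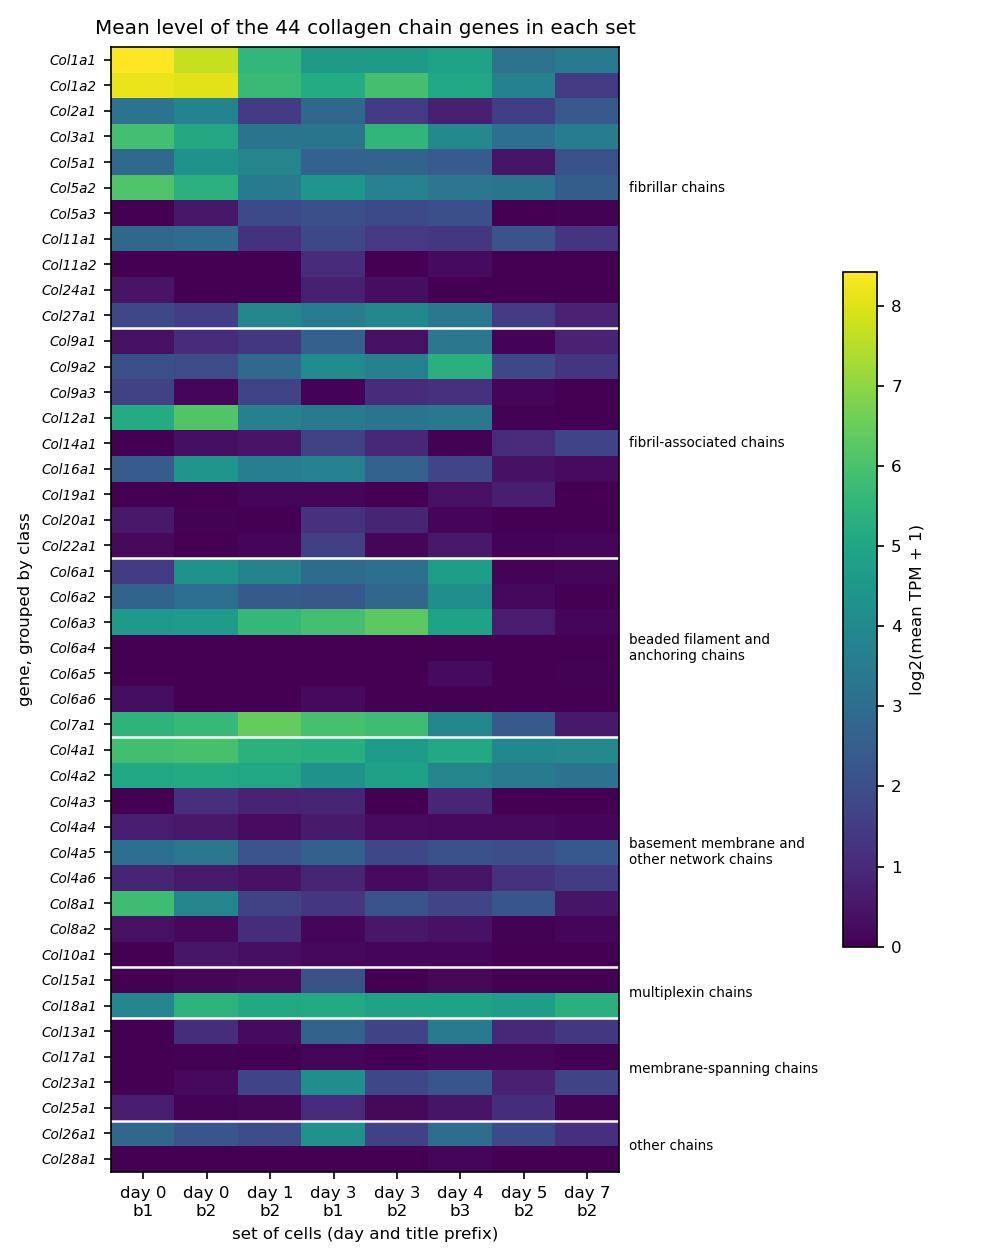
Mean TPM of the 44 chains in the 8 sets, as log2(mean TPM + 1), grouped by class with white lines between classes. Col1a1 and Col1a2 are brightest at day 0, and Col6a3 and Col7a1 stay bright to day 3 and are dark at day 7. Col6a1 and Col6a2 are brightest at day 4 (25.53 and 17.19 TPM), and Col18a1 keeps a similar shade throughout (13.7 to 42.3 TPM).

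The type I chains, which form the main fiber collagen of skin and bone, were the most abundant collagens of the starting cells and had fallen by day 1. Col1a1 (ENSMUSG00000001506) stood at 341.5 and 201.8 mean TPM and Col1a2 (ENSMUSG00000029661) at 289.8 and 262.3 in the day 0 sets. They took 31.79% and 26.97% of collagen TPM in b1 and 21.5% and 27.9% in b2. Counts per mega-count (CPM) of Col1a1 were 1315 and 1071 at day 0 (1193 ± 172, SD, n = 2 sets), 284.3 at day 1, 71.94 and 107.3 at day 3 (89.63 ± 25.03, n = 2), 78.63 at day 4, 30.38 at day 5 and 41.29 at day 7. Every later set lay below both day 0 sets. Col1a1 fell by 2.07 ± 0.51 (log2, SE, adjusted p = 0.00806) at day 1, 3.73 ± 0.42 (9.107e-16) at day 3, 3.92 ± 0.57 (3.237e-09) at day 4, 5.30 ± 0.62 (7.478e-15) at day 5 and 4.85 ± 0.61 (2.784e-13) at day 7. Within prefix b2 alone its log2 ratio to day 0 was -1.91, -3.32, -5.14 and -4.70 at days 1, 3, 5 and 7. One cell held 70.9% of the day 5 counts of Col1a1. Cells with a TPM of 1 or more went from 95% and 98.1% at day 0 to 86.2% at day 1, 36.1% and 34.5% at day 3, 38.98% at day 4, 22.8% at day 5 and 15.4% at day 7.

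Col1a2 took the same course to day 5 and went lower at day 7. Its CPM were 1105 and 1203 at day 0 (1154 ± 68.9, SD, n = 2), 273.5 at day 1, 117.7 and 202.9 at day 3 (160.3 ± 60.3, n = 2), 100.8 at day 4, 40.18 at day 5 and 6.08 at day 7. Again no later set overlapped the day 0 sets, and the day 7 set was the lowest. Col1a2 fell by 2.08 ± 0.51 (log2, SE, adjusted p = 0.007602) at day 1 and by 7.57 ± 0.70 (1.946e-24) at day 7, with falls of 2.85, 3.52 and 4.84 at days 3, 4 and 5 and of 2.00 ± 0.51 (0.008917) from day 3 to day 5. Without day 3 b1 or b2, which only set the shared spread there, the day 1 calls were lost (adjusted p = 0.101 and 0.110 for Col1a1, 0.0980 and 0.107 for Col1a2). The call from day 3 to day 5 was lost without day 3 b1 (-2.34, adjusted p = 0.0707), without day 3 b2 (-1.55, 0.667) and with the small-set cells added (-0.92, 0.683). A cell with either type I chain was the rule at day 0 (19 of 20 and 54 of 54) and at day 1 (57 of 58). It was found in 40 of 61 and 44 of 58 cells at day 3, 37 of 59 at day 4, 31 of 79 at day 5 and 12 of 65 at day 7.

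Of the 11 fibrillar chains, 2, 3, 4, 6 and 5 fell at days 1, 3, 4, 5 and 7 and edgeR called none higher (2, 2, 2, 0 and 0 higher at an unadjusted p under 0.05), with class medians of -2.07, -1.32, -2.86, -4.70 and -3.28. Col5a2 (ENSMUSG00000026042), a type V chain that sits inside type I fibrils and sets their width, fell from day 3 on. Its CPM were 262.6 and 208.3 at day 0 (235.4 ± 38.4, SD, n = 2), 59.25 at day 1, 68.72 and 51.44 at day 3 (60.1 ± 12.2, n = 2), 32.35 at day 4, 32.04 at day 5 and 18.83 at day 7. All later sets lay below both day 0 sets, and day 7 was lowest. The fall was 1.97 ± 0.47 (log2, SE, adjusted p = 0.001728) at day 3, 2.86 at day 4, 2.88 at day 5 and 3.64 ± 0.67 (4.502e-06) at day 7. The day 3 call was lost without day 3 b1 (-2.20, adjusted p = 0.0813) or b2 (-1.78, 0.333), and at day 1 the change of -1.99 ± 0.61 had an adjusted p of 0.0772.

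Col5a1 (ENSMUSG00000026837), the partner chain of Col5a2, kept its level longer. Its CPM were 28.56 and 85.16 at day 0 (56.86 ± 40.02, SD, n = 2), 69.92 at day 1, 20.31 and 25.40 at day 3 (22.9 ± 3.60, n = 2), 13.94 at day 4, 1.044 at day 5 and 8.642 at day 7. The day 1 set lay between the day 0 sets, and the sets from day 3 on lay below both. Col5a1 fell by 5.77 ± 1.08 (log2, SE, adjusted p = 9.826e-06) at day 5 and by 4.45 ± 1.008 (0.001461) from day 3 to day 5. Its fall of 2.72 ± 0.91 (0.04393) at day 7 was not called without day 0 b2 (-1.73, 0.321) or without day 3 b1 (-2.72, 0.1002) or b2 (-2.72, 0.109). Cells with Col5a1 were 75.9% of day 0 b2, 81.03% of day 1, 29.3% of day 3 b2, 6.33% of day 5 and 10.8% of day 7.

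Col3a1 (ENSMUSG00000026043), the type III chain of stretchy tissues that often joins type I fibrils, was called lower at days 5 and 7. Its CPM were 106.1 and 89.97 at day 0 (98.03 ± 11.40, SD, n = 2), 20.97 at day 1, 17.93 and 67.43 at day 3, 34.12 at day 4, 16.37 at day 5 and 20.49 at day 7. All later sets were below day 0, but the day 3 sets differed from each other by more than day 0 differed from day 3 b2. At day 1 the change of -2.22 ± 0.75 had an adjusted p of 0.156. Col3a1 fell by 2.58 ± 0.77 (log2, SE, adjusted p = 0.02029) at day 5 and by 2.26 ± 0.75 (0.04244) at day 7. Neither call held without day 3 b1 (adjusted p = 0.0520 and 0.0927) or b2 (0.0740 and 0.120), or with the small-set cells added (-1.64, 0.243 and -1.998, 0.0831), and the day 7 call did not hold without day 0 b1 (-2.13, 0.0645). Cells with Col3a1 were 55% and 68.5% at day 0, 27.6% at day 1, 18.03% and 34.48% at day 3, 28.8% at day 4, 15.2% at day 5 and 16.9% at day 7.

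Among the other fibrillar chains, Col5a3 and Col27a1 stood out on the days between the start and day 5. Col5a3, a minor type V chain, had 0 and 2.871 CPM at day 0, 16.11 at day 1, 14.72 and 12.46 at day 3, 10.82 at day 4, 0.00536 (1 count) at day 5 and 0.148 at day 7. The 4 sets of days 1 to 4 were above both day 0 sets, yet no rise was called (log2 3.48, 3.23 and 2.90, adjusted p = 0.447, 0.236 and 0.473). From day 3 to day 5 it fell (adjusted p = 0.004915), with a ratio of 2586-fold whose exact counting interval ran from 464.0 to 102200, and that call was lost without day 3 b1 (adjusted p = 0.106) or b2 (0.0588). Its call against day 0 at day 5 rested on day 0 b2, since without it the change was +2.81 (0.904), and the call was also lost without day 3 b1 (0.153) or b2 (0.135). Col27a1, a chain of cartilage and developing tissue, had 3.413 and 8.289 CPM at day 0, 37.47 at day 1, 27.17 and 31.90 at day 3, 26.60 at day 4, 2.914 at day 5 and 4.739 at day 7. Its 4 middle sets did not overlap the other 4, but the log2 changes of 2.68, 2.33 and 2.18 at days 1, 3 and 4 did not pass (adjusted p = 0.246, 0.144 and 0.342). Cells with Col27a1 were 20% and 24.1% at day 0, 48.3% to 68.97% in the sets of days 1 to 4, and 6.33% and 4.62% at days 5 and 7. Col2a1, the cartilage fibril chain, fell at day 4 only (-4.59 ± 1.33, adjusted p = 0.02252), from 25.85 and 59.34 CPM to 1.763. That call was lost without day 0 b2 (0.128), day 3 b1 (0.0914) or day 3 b2 (0.0619). Col11a1, its type XI partner, had no call and went from 24.09 and 37.86 CPM at day 0 to 3.340 at day 7.

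**Figure D3:**
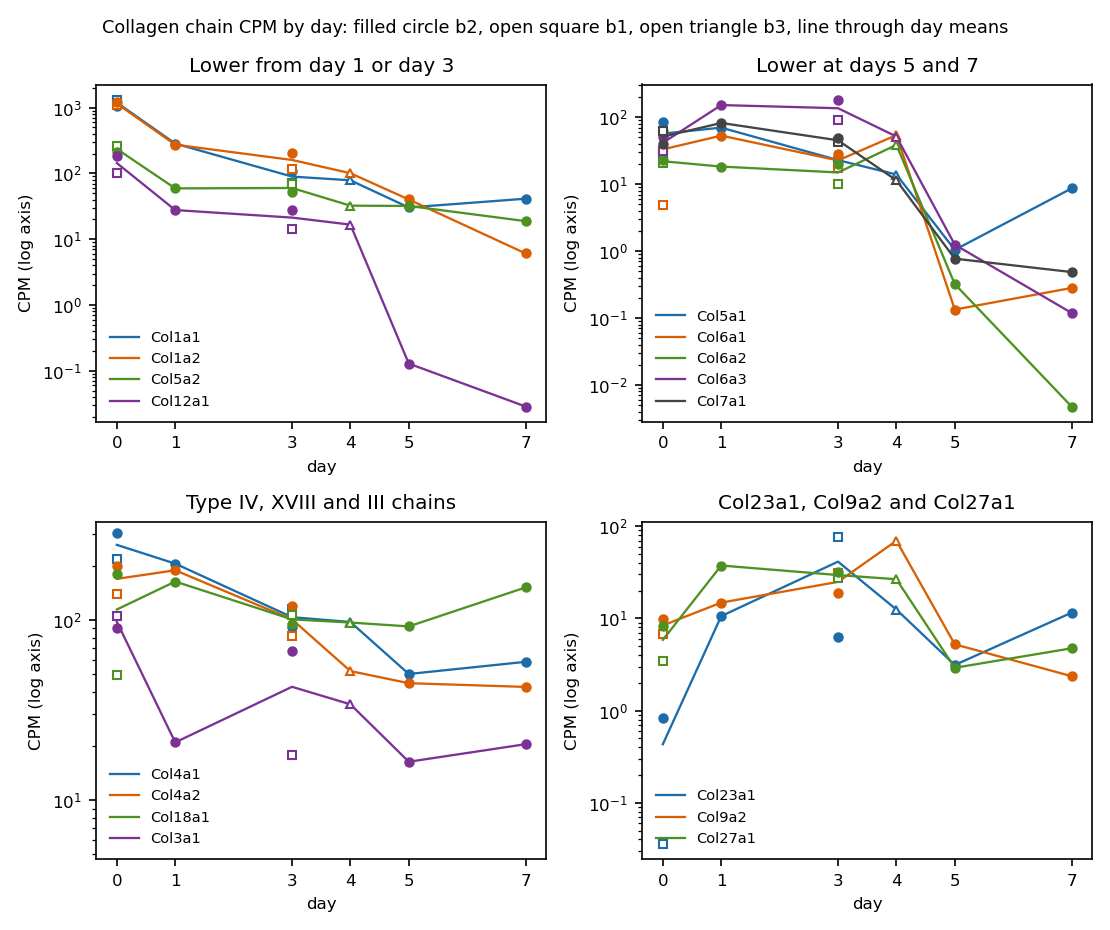
CPM of 16 chains by day (log axes), with 1 marker per set (filled circle b2, open square b1, open triangle b3) and a line through the mean of the sets of each day. Col1a1 and Col1a2 are down from day 1, the type VI chains, Col5a1 and Col7a1 drop between day 4 and day 5, the later sets of Col18a1 lie between its day 0 sets, and Col23a1, Col9a2 and Col27a1 have their highest set between days 1 and 4.

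Fibril-associated chains split: Col12a1 fell to near nothing, Col16a1 fell at day 7, and Col9a2 rose at day 4. Col12a1 (ENSMUSG00000032332), which decorates type I fibrils in tissues under load, had 100.6 and 186.8 CPM at day 0 (143.7 ± 60.95, SD, n = 2), 27.75 at day 1, 14.55 and 28.09 at day 3 (21.3 ± 9.57, n = 2), 16.66 at day 4, 0.129 at day 5 and 0.0286 at day 7. All later sets were below both day 0 sets, and days 5 and 7 were far below day 4. Col12a1 fell by 2.75 ± 0.58 (log2, SE, adjusted p = 0.0002307) at day 3, 3.11 ± 0.79 (0.00487) at day 4 and 10.12 ± 1.13 (2.468e-16) at day 5, and its change at day 7 was -12.25 ± 1.24 (3.854e-20). The day 3 call was lost without day 3 b1 (-2.36, adjusted p = 0.158) and the day 4 call without day 0 b2 (-2.59, 0.0948). With the small-set cells added, the day 5 fall was 4.58, and the fall of 7.36 ± 1.0096 (3.442e-10) from day 3 to day 5 became 1.83 (0.342). Cells with Col12a1 were 95% and 81.5% at day 0, 67.2% at day 1, 45.9% and 29.3% at day 3, 27.1% at day 4 and 1.27% at day 5 (1 of 79). At day 7 none of 65 cells of b2 had it, which allows a share of up to 4.62%, but 1 of the 2 small-set cells held 89.34 TPM, and with these added the day 7 change was -7.38 (2.69e-11).

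Col9a2, a chain of the type IX collagen that coats cartilage fibrils, had the highest mean TPM of the chains at day 4, though 4 chains were above it in CPM. Its CPM were 6.825 and 9.950 at day 0, 14.84 at day 1, 30.92 and 18.88 at day 3, 69.62 at day 4, 5.233 at day 5 and 2.362 at day 7. Sets of days 1 to 4 were above and those of days 5 and 7 below both day 0 sets. Col9a2 rose by 3.05 ± 0.94 (log2, SE, adjusted p = 0.0404) at day 4, a call lost without day 0 b1 (+2.81, 0.109), day 3 b1 (+3.06, 0.166) or day 3 b2 (+3.05, 0.131). Its mean TPM at day 4 was 40.08, and it was the top chain in 14 of 59 cells there. Cells with Col9a2 were 15% and 9.26% at day 0, 48.3% at day 1, 50.8% and 34.5% at day 3, 62.7% at day 4, 11.4% at day 5 and 13.8% at day 7. Its partner chains were lower: Col9a1 reached 22.82 CPM at day 4, and Col9a3 did not pass 3.898 CPM in any set. Col16a1, which joins fibrils to cells, fell by 7.63 ± 2.46 (adjusted p = 0.03342) at day 7, from 2.838 and 25.95 CPM to 0.0716. That call was lost without day 0 b2 (0.247), day 3 b1 (0.120) or day 3 b2 (0.0852) and with the small-set cells added (0.0721).

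Type VI chains, which assemble from Col6a1, Col6a2 and Col6a3 into the beaded filaments around connective tissue cells, had no call lower on days 1, 3 and 4 and fell at days 5 and 7. Col6a3 (ENSMUSG00000048126) had 31.67 and 51.23 CPM at day 0 (41.5 ± 13.8, SD, n = 2), 151.9 at day 1, 90.65 and 181.9 at day 3 (136.3 ± 64.6, n = 2), 51.51 at day 4, 1.248 at day 5 and 0.119 at day 7. The sets of days 1 and 3 were above both day 0 sets, day 4 was level with the higher of them, and days 5 and 7 were below both. Col6a3 rose by 1.72 ± 0.50 (log2, SE, adjusted p = 0.024) at day 3 and fell by 5.05 ± 0.79 (3.265e-08) at day 5, 8.43 ± 0.95 (2.155e-16) at day 7 and 6.77 ± 0.87 (1.132e-11) from day 3 to day 5. Its rise was not called without day 0 b1 (+1.41, 0.135), day 3 b1 (+2.13, 0.0614), day 3 b2 (+1.13, 0.993) or cells under 7500 genes (+1.39, 0.121).

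Col6a1 (ENSMUSG00000001119) had 4.814 and 61.34 CPM at day 0 (33.08 ± 39.97, SD, n = 2), 53.13 at day 1, 17.51 and 27.76 at day 3 (22.6 ± 7.24, n = 2), 54.10 at day 4, 0.134 at day 5 and 0.282 at day 7. Col6a2 (ENSMUSG00000020241) had 20.87 and 23.14 CPM at day 0, 18.31 at day 1, 10.21 and 19.71 at day 3 (15.0 ± 6.71, n = 2), 38.57 at day 4, 0.321 at day 5 and 0.00477 (1 count) at day 7. The Col6a2 sets of days 1 and 3 lay below both day 0 sets with no call. For both chains the sets of days 5 and 7 lay below all 6 earlier sets, and the Col6a1 sets of day 0 spanned those of days 1, 3 and 4. Without day 0 b2 the Col6a1 changes at days 1, 3 and 4 were +3.46, +2.23 and +3.49. Without day 0 b1 they were -0.21, -1.44 and -0.18, so the day 0 sets decide them. Col6a1 fell by 7.94 ± 1.29 (log2, SE, adjusted p = 1.206e-07) at day 5, and its change at day 7 was -6.87 ± 1.22 (1.617e-06). Col6a2 fell by 6.09 ± 1.48 (0.001717) at day 5 and was 4720-fold lower at day 7 (exact counting interval 846.7 to 186500, adjusted p = 1.928e-07). From day 3 to day 5 they fell by 7.39 (1.847e-06) and 5.54 (0.01043), the latter not without day 3 b2 (-4.99, 0.156).

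The day 5 calls of the type VI chains rest on prefix b2. The 1 collagen-rich b1 cell of day 5 held 264.3 TPM of Col6a3, 120.0 of Col6a1 and 40.27 of Col6a2. With the small-set cells added, the changes at day 5 were -1.70 for Col6a3 (adjusted p = 0.134), -2.18 for Col6a1 (0.216) and -3.04 for Col6a2 (0.182), and none was called. From day 3 to day 5 Col6a3 was still called (-3.42, 0.0004365), while Col6a1 (-1.64, 0.727) and Col6a2 (-2.49, 0.592) were not, and the day 7 calls of all 3 held. Within b2, a cell with any of the 3 chains was found in 39 of 54 at day 0, 48 of 58 at day 1, 34 of 58 at day 3, 2 of 79 at day 5 and 2 of 65 at day 7. In b1 it was 13 of 20 at day 0 and 39 of 61 at day 3, and in b3 it was 22 of 59 at day 4. The remaining type VI chains Col6a4, Col6a5 and Col6a6 did not pass 1.031 CPM in any set.

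Col7a1, the anchoring fibril chain beneath epithelia, fell at days 5 and 7. By mean TPM, though not by CPM, it was among the 5 highest chains from day 0 b2 to day 3. Its CPM were 62.13 and 40.21 at day 0, 82.08 at day 1, 42.16 and 48.26 at day 3, 11.43 at day 4, 0.771 at day 5 and 0.487 at day 7. Day 3 lay between the day 0 sets, and day 4 was below both without a call (-2.16 ± 0.83, adjusted p = 0.183). Col7a1 fell by 6.05 ± 1.04 (log2, SE, adjusted p = 7.727e-07) at day 5, 6.71 ± 1.08 (5.121e-08) at day 7 and 5.87 ± 1.03 (3.979e-06) from day 3 to day 5, and the last was -5.96 with the small-set cells added. One cell held 73.3% of its counts in day 0 b1. In mean TPM it was the top chain at day 1 (86.12, 18.99% of collagen TPM) and in day 3 b1 (61.60), and at day 7 it was at 0.506. Cells with Col7a1 were 55% and 57.4% at day 0, 79.3% at day 1, 52.5% and 46.6% at day 3, 38.98% at day 4, 2.53% at day 5 and 3.08% at day 7.

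**Figure D4:**
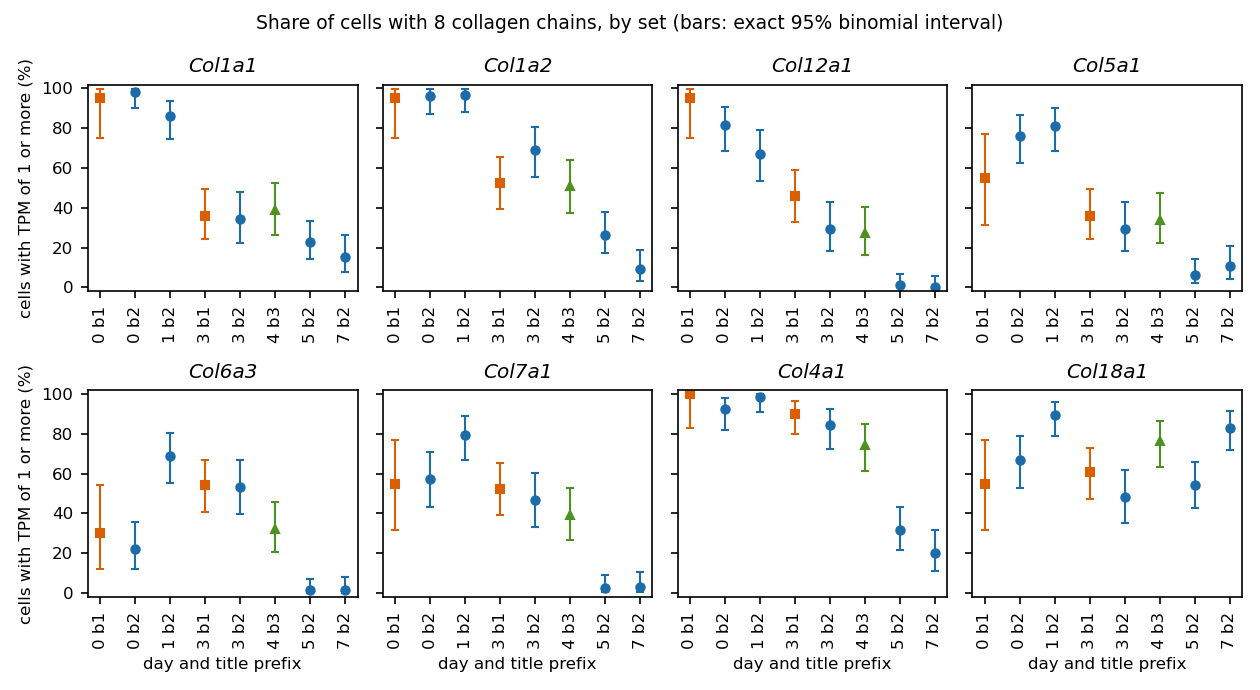
Share of cells with a TPM of 1 or more for 8 chains in the 8 sets, with exact (Clopper-Pearson) 95% binomial intervals, which cover counting error only. Col12a1 steps down from day 0 on and Col1a1, Col1a2 and Col5a1 mainly after day 1, Col6a3 and Col7a1 peak at day 1 (68.97% and 79.3%) and are at 3.08% or less at days 5 and 7, Col4a1 falls after day 4, and Col18a1 is at 83.1% at day 7.

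The type IV chains Col4a1 and Col4a2, which wind together into the network of all basement membranes, fell at days 5 and 7 and stayed above 40 CPM in every set. Their genes lie head to head in RefSeq, with 22 bases of GRCm38.p6 common to both first exons, and reads there cannot be assigned to 1 gene without strand. Col4a1 (ENSMUSG00000031502) had 219.8 and 304.4 CPM at day 0 (262.1 ± 59.9, SD, n = 2), 206.2 at day 1, 116.04 and 91.97 at day 3 (104.01 ± 17.02, n = 2), 97.76 at day 4, 50.28 at day 5 and 58.75 at day 7. Col4a2 (ENSMUSG00000031503) had 139.9 and 199.6 CPM at day 0 (169.7 ± 42.2, n = 2), 189.4 at day 1, 81.91 and 120.3 at day 3 (101.1 ± 27.2, n = 2), 52.18 at day 4, 44.70 at day 5 and 42.62 at day 7. Every set from day 3 on was below both day 0 sets for both chains, and the Col4a2 set of day 1 lay between them. Col4a1 fell by 2.38 ± 0.58 (log2, SE, adjusted p = 0.001808) at day 5 and 2.16 ± 0.57 (0.004886) at day 7, and its change of -1.33 at day 3 had an adjusted p of 0.0541. Col4a2 fell by 1.93 ± 0.59 (0.02658) and 1.99 ± 0.59 (0.0159), neither of which was called without day 3 b1 (adjusted p = 0.0880 and 0.0559) or b2 (0.0958 and 0.0608).

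Few cells carried the late type IV transcripts. Cells with Col4a1 were 100% and 92.6% at day 0, 98.3% at day 1, 90.2% and 84.5% at day 3, 74.6% at day 4, 31.6% at day 5 and 20% at day 7. Cells with Col4a2 ran from 92.6% or more at day 0 to 16.5% at day 5 and 20% at day 7. At day 7, 1 cell held 73.6% of the Col4a1 counts and 1 cell 61.4% of the Col4a2 counts, and the median TPM of both was 0. The day 7 CPM of both chains thus rest largely on single cells. Over the alternatives run, the day 7 changes ranged from -4.07 to -1.27 for Col4a1 and from -3.33 to -1.72 for Col4a2. Across the cells of a set, Col4a1 and Col4a2 TPM had a Spearman rho of 0.13 (20 cells) and 0.41 (54 cells) at day 0, 0.75 at day 4 (59 cells), 0.69 at day 5 (79 cells) and 0.60 at day 7 (65 cells). At day 5, 13 cells had both chains, 12 had Col4a1 alone and none had Col4a2 alone.

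Of the other network chains, Col8a1, a short chain of vessel and corneal matrix, was called lower at days 3, 4, 5 and 7. Its CPM were 153.1 and 56.50 at day 0, 13.28 at day 1, 4.496 and 14.54 at day 3, 7.472 at day 4, 12.53 at day 5 and 1.078 at day 7. All later sets were below both day 0 sets, though 1 cell held 74.4% of the counts of day 0 b1. One cell also held 68.04% of the counts at day 1, 78.37% in day 3 b2, 86.45% at day 5 and 80.97% at day 7. In the remaining sets the top cell held 32.81% to 48.11%. At day 1 the change of -2.98 ± 0.91 had an adjusted p of 0.0746. Col8a1 fell by 3.46 ± 0.70 (log2, SE, adjusted p = 7.712e-05) at day 3, 3.81 ± 0.95 (0.003995) at day 4 and 3.06 ± 0.91 (0.02098) at day 5, and its change at day 7 was -6.601 ± 1.113 (3.008e-07). Without day 0 b1 the first 3 of these were not called (-2.57, -2.92 and -2.17, adjusted p = 0.101, 0.199 and 0.375), nor was day 3 without day 3 b1 (-2.85, 0.125) or day 5 without day 3 b2 (-3.06, 0.0542). The day 4 call was also lost without the top cell of every set (-3.40, 0.186). Col4a3, a chain of kidney basement membrane, had no counts at day 7 or in day 0 b1 and 8.607 CPM in day 0 b2, where 95.9% of the counts came from 1 cell. Its call at day 7 (at least 439.3-fold lower, with 3 counts as the floor for the day) was lost without that set (adjusted p = 1). It was lost without day 3 b1 (0.137) or b2 (0.117) too. Col4a5, which lies beside Col4a6 on the X chromosome, had 14.33 and 36.66 CPM at day 0 and 6.513 to 10.95 later, with no call.

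Col18a1 (ENSMUSG00000001435), a multiplexin of basement membranes whose end fragment is endostatin, kept the level of the day 0 sets. Its CPM were 49.48 and 179.9 at day 0 (114.7 ± 92.2, SD, n = 2), 164.0 at day 1, 106.5 and 95.76 at day 3 (101.2 ± 7.63, n = 2), 97.09 at day 4, 92.39 at day 5 and 152.1 at day 7. All 6 later sets lay between the day 0 sets, and no comparison passed (log2 changes of -0.31 to 0.52, adjusted p = 0.815 to 1). Without day 0 b2, the higher day 0 set, the day 7 change of 0.41 ± 0.52 became +1.62 with an adjusted p of 0.0380, so the 2 day 0 sets decide it. Cells with Col18a1 were 55% and 66.7% at day 0, 89.7% at day 1, 60.7% and 48.3% at day 3, 76.3% at day 4, 54.4% at day 5 and 83.1% at day 7. It was the top chain in 4 of 54 cells of day 0 b2, 23 of 79 at day 5 and 36 of 65 at day 7 (55.4%). Its TPM did not follow the pluripotent markers across cells at day 5 (rho 0.08) or day 7 (rho -0.02), while the collagen sum went against them (-0.56 and -0.41). Col15a1, the second multiplexin, did not pass 1.839 CPM.

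Of the 4 membrane-spanning chains, Col23a1 alone was called, and higher. It had 0.0359 and 0.827 CPM at day 0, 10.59 at day 1, 76.26 and 6.321 at day 3, 12.49 at day 4, 3.123 at day 5 and 11.53 at day 7. All later sets were above both day 0 sets, and of the day 3 sets b1 was far above b2. Col23a1 rose by 4.57 ± 1.11 (log2, SE, adjusted p = 0.005532) at day 1, 6.54 ± 1.14 (1.657e-06) at day 3, 4.81 ± 1.11 (0.001246) at day 4 and 4.70 ± 1.11 (0.0009349) at day 7. Without day 3 b1 all 4 calls were lost (adjusted p = 0.522, 0.574, 0.232 and 0.144), and the day 1 call was lost without day 0 b1 (+3.68, 0.0828). One cell held 46.8% of the counts of day 3 b1 and 1 cell 95.7% of those of day 7, and leaving out each set's top cell made the day 7 change +3.30 (0.162). Cells with Col23a1 were 0% of 20 (up to 15% allowed) and 1.85% at day 0, 29.3% at day 1, 40.98% and 15.5% at day 3, 30.5% at day 4, 3.797% at day 5 and 3.08% at day 7. Col13a1, found at cell contacts and nerve-muscle junctions, was in 34.4% of day 3 b1 and 38.98% of day 4 cells but in 0% to 6.33% of the other 6 sets, with no call.

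Col26a1, an unusual small chain first described in reproductive tissue, was detected widely at low level with no call. Its cells were 85% and 20.4% at day 0, 60.3% at day 1, 91.8% and 44.8% at day 3, 84.7% at day 4, 55.7% at day 5 and 24.6% at day 7. The b1 share was above the b2 share at day 0 and at day 3, and the CPM were 8.657 and 10.60 at day 0 and 24.20 and 3.023 at day 3. In all, 25 chains had no call, 7 of which reached 10 CPM in some set, and 5 chains stayed under 1 CPM in every set. Col14a1, a fibril-associated chain of skin, reached 11.89 CPM in day 3 b1 and 13.88 at day 7, but 1 cell held 99.3% and 87.6% of these counts. Col4a4, Col8a2, Col20a1, Col22a1 and Col25a1 were in 10% to 20% of the cells of some set and reached 6.615 CPM at most. That highest value was Col25a1 at day 5, where 1 cell held 77.4% of the counts. Col10a1, Col11a2, Col17a1, Col19a1, Col24a1 and Col28a1 were in under 4% of the cells of each set other than Col24a1 (5% at most), and did not pass 1.697 CPM. On 22378 genes the test recovered 9.6% of simulated 4-fold and 51.6% of 16-fold changes at day 7, so a chain without a call can have changed.

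Of the summed collagen TPM, fibrillar chains took a smaller share after day 0, beaded filament and anchoring chains a larger one on days 1 to 4, and multiplexins a larger one at days 5 and 7; these shares were not tested. Fibrillar chains made up 72.8% and 61.5% of collagen TPM at day 0, 32.8% at day 1, 26.2% and 38.6% at day 3, 28.97% at day 4, 37.8% at day 5 and 31.6% at day 7. Type VI and VII chains made up 6.82% and 10.5% at day 0, 24.1% to 33.4% in the sets of days 1 to 4, 4.35% at day 5 and 0.592% at day 7. In these shares of the mean, both day 0 sets were lower in the second class and higher in the first than all 4 sets of days 1 to 4. The median share of type VI and VII chains within a cell was 1.82% and 5.57% at day 0, 24.1% at day 1, 12.7% and 11% at day 3, 2.01% at day 4 and 0% at days 5 and 7. By that measure day 4 lay between the day 0 sets. Multiplexins, almost all Col18a1, made up 1.28% and 4.51% at day 0, 6.49% to 8.495% at days 1 to 4, 21.1% at day 5 and 34.3% at day 7. Basement membrane and other network chains were 12.88% to 17.97% up to day 4, 27.8% at day 5 and 25.1% at day 7. At days 5 and 7 the median share within a cell was 17.1% and 4.01% for fibrillar chains, 1.71% and 0.807% for network chains and 8.26% and 52.8% for multiplexins. For network chains these medians lay below those of the 6 earlier sets (11.3% to 18.4%), while the shares of the mean lay above.

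**Figure D5:**
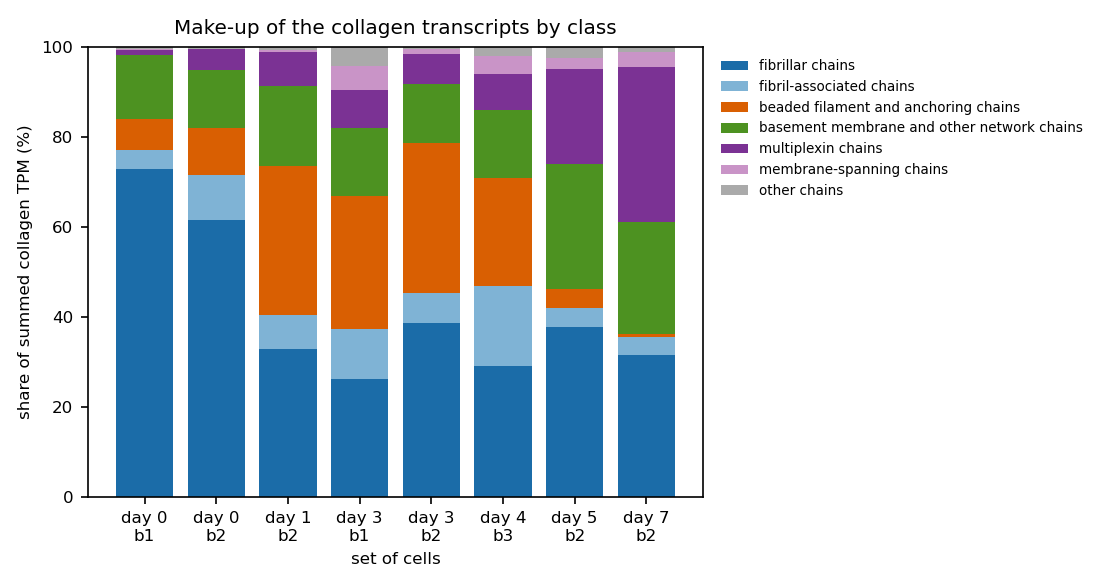
Share of the summed collagen TPM taken by each class of chains in the 8 sets, as stacked bars from 0 to 100%. Fibrillar chains take 72.8% and 61.5% at day 0, beaded filament and anchoring chains take 24.1% to 33.4% on days 1 to 4, and multiplexins take 34.3% at day 7.

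Chains that share a protein were not always found in the same cell. Col1a1 and Col1a2, which wind together, were both present in 51 of 54 cells of day 0 b2, with 2 cells holding Col1a1 alone and 1 Col1a2 alone. At day 1, 49 of 58 cells had both and 7 had Col1a2 alone. In day 3 b2, 16 of 58 cells had both, 24 had Col1a2 alone and 4 had Col1a1 alone, and at day 5, 8 of 79 had both, 13 Col1a2 alone and 10 Col1a1 alone. Spearman's rho of the pair was 0.70 and 0.54 in the day 0 sets (20 and 54 cells), 0.42 at day 1, 0.34 and 0.23 at day 3, 0.51 at day 4, 0.26 at day 5 and 0.43 at day 7. Col6a1 and Col6a2, which lie on the same chromosome, had a rho of 0.07 and 0.51 at day 0, 0.51 at day 1, 0.37 and 0.58 at day 3 and 0.70 at day 4. A transcript missed by capture and a transcript that is not there cannot be told apart in such counts.

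Up to 6 of 13 genes that finish collagen outside the cell, and up to 4 of 20 folding genes, were called lower on a given day. Of all genes tested, 0.25% (day 1) to 3.05% (day 7) were called lower and 0.934% to 3.55% higher. Of 13 genes for procollagen processing and crosslinking, 1, 2, 3, 4 and 6 fell at days 1, 3, 4, 5 and 7 by edgeR and none rose (1 higher at an unadjusted p under 0.05, at day 3; medians -0.16, -1.20, -2.12, -3.20 and -3.91). Lox, the oxidase that starts crosslinks between collagen chains, had 275.3 and 216.7 CPM at day 0, 20.89 at day 1, 0.813 and 1.967 at day 3, 3.392 at day 4, 3.776 at day 5 and 0.372 at day 7. Its fall of 3.56 ± 0.74 (log2, SE, adjusted p = 4.347e-04) at day 1 and 7.47 ± 0.66 (3.324e-26) at day 3 was larger than that of Col1a1 in value, a difference that was not tested. Pcolce, which helps trim procollagen ends, fell by 3.20 at day 5 and 3.91 at day 7, and Loxl1 changed by -7.54 and -5.98. Loxl2 and Pcolce2 had no call, and Pcolce2 had 27.57 and 43.37 CPM at day 0 and 35.37 at day 7. Of 20 genes for folding and modification in the endoplasmic reticulum, none was called at day 1 or 4 by edgeR (1 and 3 lower, 0 and 1 higher at an unadjusted p under 0.05), P4ha3 fell at day 3, Creb3l1 (-3.48) and P4ha1 (-2.23) at day 5, and P3h2 (-5.76), Fkbp10 (-5.56), P3h4 (-4.07) and P3h3 (-3.19) at day 7. P4hb, a subunit of the proline hydroxylase, had 418.3 and 530.5 CPM at day 0 and 512.8 at day 7, and Ppib, a folding isomerase, had 369.0 and 623.4 at day 0 and 305.5 at day 7, with no call. The median of this list was -0.79 at day 7. Of 8 secretion genes, Sec23a fell at days 4 and 5, Sec24d at day 5, and Klhl12, which enlarges the vesicles that carry procollagen, rose at day 7 (+3.05 ± 0.81, adjusted p = 0.005332, from 4.544 and 14.67 to 79.46 CPM). Sec13 and Sec31a had no call.

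Up to 6 of the 15 fibril partners were called lower on a given day, and 4 of the 12 basement membrane partners rose at day 7. Of all genes tested, 3.05% were called lower and 3.55% higher at day 7, and 1.07% lower from day 3 to day 5. Of 15 fibril partners, none was called at day 1 by edgeR (6 lower at an unadjusted p under 0.05), and 5, 5, 6 and 6 fell at days 3, 4, 5 and 7 with no rise (1 higher at an unadjusted p under 0.05 at days 3 and 4; medians -0.79, -1.26, -2.38, -2.87 and -2.25 at days 1 to 7). Bgn, a small proteoglycan on type I fibrils, went from 1492 and 2338 CPM at day 0 to 14.49 at day 7 (-7.05 ± 0.65, adjusted p = 3.609e-24). Fbln2 fell by 5.52, Ogn by 4.57 and Sparc, a collagen chaperone outside the cell, by 2.56 at day 7, while Fbln1 and Dcn had no call. Of 12 basement membrane partners, 4 rose at day 7 and none fell by edgeR (3 lower at an unadjusted p under 0.05): Lama1 (+4.21), Agrn (+2.00), Lamc1 (+1.85) and Nid2 (+1.67). Lamc1, the laminin gamma chain, had 47.35 and 67.09 CPM at day 0, 93.09 at day 5 and 206.1 at day 7, above both day 0 sets. Nid1, which links laminin to type IV collagen, fell at day 4 (-1.80) and day 5 (-2.001), and Lamb1 and Hspg2 had no call. Of 10 collagen receptors, none was called at days 1, 3 and 4 by edgeR (1, 1 and 2 lower, 1, 0 and 1 higher at an unadjusted p under 0.05), Itga11 and Ddr2 fell at day 5 (-7.57 and -2.80), and at day 7 Itgb1 (-1.98), Ddr2 (-2.44) and Itga11 fell, the last from 84.83 and 96.50 CPM to no counts (at least 6520-fold lower). Mrc2 and Ddr1 had no call. From day 3 to day 5, 4 crosslinking genes, 3 fibril partners, 1 basement membrane partner and 1 receptor fell, and edgeR called none of the pathway genes higher (4 were higher at an unadjusted p under 0.05).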

How the data were processed

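Full-length libraries of single cells on the Fluidigm C1 were analysed from 2 tables. The authors deposited expected counts and TPM per gene, made with RSEM 1.2.22 after bcl2fastq per the submitters' processing notes. Genome build and annotation: not given in the sources used here. Expected counts (9.108% not whole) were summed over the cells of each of 8 sets of 1 day and 1 title prefix, rounded, and tested with edgeR 4.0.16 (R 4.3.3; filterByExpr, TMM, quasi-likelihood F test, two-sided, Benjamini-Hochberg over 22378 genes), with 1 group per day. Standard errors are the absolute log2 fold change divided by the root of F. A cell held a chain at a TPM of 1 or more, and shares have exact (Clopper-Pearson) 95% intervals. These libraries carry no molecular identifiers, so intervals, and the limit of 3 counts or cells behind a 0, cover counting error only. No doublet caller was run.

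Alternatives were DESeq2 1.42.0, RLE factors, no filter, all 10 sums, the prefix as a block, leaving out each day 0 or day 3 set, the highest cell, or cells under 7500 genes, and limma 3.58.1 on log2(mean TPM + 1). The fit was tested on simulated data. Every chain in 10% of the cells of a set, or called and at 10 CPM, is named, with up to 4 called and 2 uncalled genes of each pathway list. Col4a3 and the chains under 10% were named after their values were seen. Members and lists were chosen with earlier results of these data known. Protein sequences were not used here.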

Additional observations from a re-analysis of the deposited data

Results flagged for a closer look

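Of 24 chains that reached 10 CPM in a day 0 or day 3 set, 5 moved one way between day 0 and day 3 within prefix b1 and the other way within b2. The share of all genes that did so was not computed, so the count of 5 is not a trait of collagen chains. Over 9315 genes, the b1 minus b2 deviations at days 0 and 3 had a correlation of 0.065. The difference between prefixes was not tested, since each prefix had 1 set a day. Col6a1 had a log2 CPM ratio of day 3 to day 0 of 1.86 within b1 and -1.14 within b2, Col26a1 of 1.48 and -1.81, and Col16a1 of 1.45 and -3.41. Col18a1 had 1.11 and -0.91, and Col7a1 had -0.56 and 0.26.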

How the results depend on the processing

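Col1a1, Col1a2 and Col12a1 stayed negative at days 5 and 7 in every alternative run, but with all 10 sums the changes shrank to -2.77, -1.25 and -1.30 at day 5 (adjusted p = 0.236, 0.785 and 0.904) and -1.75, -1.54 and -2.02 at day 7 (0.386, 0.577 and 0.660), none called, and limma did not call them at day 5 (0.0872, 0.0872 and 0.0924). The 10 results that reversed were Col5a3 at day 5 without day 0 b2 (2.81; -8.86 to 2.81 over the sets left out) and, with all 10 sums (the small sets of 5 and 2 cells given the weight of a set), Col3a1 (0.75), Col6a1 (1.12), Col6a2 (0.10) and Col6a3 (1.48) at day 5, Col3a1 (0.97) at day 7, and Col12a1 (1.43), Col1a2 (1.57), Col6a1 (1.63) and Col6a2 (0.64) from day 3 to day 5. Numbers of chains called are given for days 1, 3, 4, 5 and 7 and from day 3 to day 5. With all 10 sums edgeR called 0, 0, 0, 1, 2 and 0 (0, 5, 5, 9, 9 and 8 lower and 1, 1, 4, 1, 1 and 0 higher at an unadjusted p under 0.05). With limma on TPM it was 0, 0, 0, 0, 5 and 0 (5, 6, 8, 10, 11 and 11 lower, 4, 6, 4, 0, 1 and 0 higher). DESeq2 called 7 at day 1 and 13 from day 3 to day 5, leaving out cells under 7500 genes gave 5 at day 1, and adding the small-set cells to b2, chosen after seeing the data, gave 4 from day 3 to day 5. Leaving out 1 set gave 0 to 8, 2 to 9, 5 to 9, 10 to 15, 10 to 15 and 5 to 11.

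With the prefix as a replicate block, 0, 3, 7, 9 and 2 chains were called at days 1, 3, 5 and 7 and from day 3 to day 5 (day 1: 7 lower and 4 higher at an unadjusted p under 0.05), and day 4 could not be fitted. Deviations of same-prefix sets had a correlation of 0.065 over 9315 genes at days 0 and 3, under the 0.1 set for treating the prefix as pairing the sets; what a prefix stands for was not tested. Chain medians were negative in every setting at days 5 and 7 and changed sign in some at days 3 and 4 (0.65 and 0.32 without day 0 b2). The median cell in place of the mean gave collagen sums of 727.4 TPM in day 0 b2, 327.8 at day 1, 250.7 and 239.6 at day 3, 146.4 at day 4, 43.78 at day 5 and 54.29 at day 7, fibrillar shares of 15.4% in day 3 b1, 17.8% at day 4, 17.1% at day 5 and 4.01% at day 7, and network shares of 1.71% and 0.807% at days 5 and 7. The causes of these changes were not tested.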

Other observations

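The small b1 sets of the late days held collagen-rich cells. The 5 cells of day 5 had summed collagen TPM of 9.6, 19.25, 83.12, 129.0 and 1919. The highest of them held Col1a2 at 598.9, Col3a1 at 395.4, Col6a3 at 264.3, Col1a1 at 184.3 and Col12a1 at 92.96 TPM. The 2 cells of day 7 had sums of 519.9 and 1216 TPM, with 236.9 and 959.7 TPM of fibroblast markers and 4788 and 7284 TPM of pluripotent markers.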
